A study of Mus musculus with 12 samples.

Results

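Lipid mediators are small signals cut from membrane lipids, and most act through receptors of the G protein-coupled family on the cell surface. Lysophosphatidic acid (LPA) and sphingosine 1-phosphate (S1P) steer cell shape and movement through the G proteins Gi, Gq and G12/13, endocannabinoids act on immune cells through the Gi-coupled receptor CB2, and prostaglandin E2 and prostacyclin raise cyclic AMP through Gs-coupled receptors, which in macrophages restrains the release of inflammatory cytokines. Leukotriene B4 draws phagocytes through the receptor BLT1.

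The 10 receptor genes followed here were listed by name: Lpar1, Lpar5 and Lpar6 for LPA, S1pr1 and S1pr2 for S1P, Cnr2 for endocannabinoids, Ptger2, Ptger4 and Ptgir for prostanoids, and Ltb4r1 for leukotriene B4. The family was selected on the log2 differences of Lpar6, S1pr1 and Cnr2 between the groups of these same arrays, so those 3 genes are described with their values and standard errors and were given no test. Each gene is represented by the probe set that names it alone, and 9 of the 10 genes, among 19937 genes in the table, had 1 such probe set each. The expression of Lpar5 was not analysed here. The 6 genes tested were Lpar1, S1pr2, Ptger2, Ptger4, Ptgir and Ltb4r1.

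The arrays measured RNA made during 60 min of labelling with 4-thiouridine, a uridine analogue that marks new transcripts. The 4 groups of 3 arrays were MPI-2 with LPS, MPI-2 mock-treated, bone marrow-derived macrophages (BMM) with LPS, and BMM mock-treated, all of strain C57BL/6. MPI-2 is 1 macrophage line from fetal liver, kept in RPMI with GM-CSF, whereas the BMM were differentiated ex vivo in DMEM with M-CSF, so that in a difference between MPI-2 and BMM the line, its growth factor, its medium and any array batch cannot be told apart. LPS, the cell wall component of Gram-negative bacteria that is sensed by Toll-like receptor 4, was added 30 min before labelling began. The titles name biological replicates but give no separate animals or cultures for them. P-values therefore rest on the spread among these arrays only, which may be technical.

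Values are deposited log2 expression levels, each about a doubling of signal per unit, and group levels are means ± SD of 3 arrays. Differences are log2 differences ± SE from a limma fit to all 12 arrays, called at a Benjamini-Hochberg adjusted p under 0.05 over all genes. The fit pools the spread of a gene over all groups. Its SE is therefore the same for MPI-2 and BMM, although BMM arrays varied more, and is not each cell type's own precision. A gene counts as above background when its mean exceeds 3.36, a level that 95% of 1027 odorant receptor genes, assumed to be silent in macrophages, do not reach. All 8 measured macrophage markers (Adgre1, Csf1r, Cd68, Itgam, Fcgr1, Mertk, Lyz2 and Cd14) lay above it in all 4 groups. Within groups, the correlation between arrays over all genes ran from 0.994 to 0.996 for MPI-2 and from 0.975 to 0.989 for BMM. The interquartile range of log2 values was lower in BMM LPS (2.38 to 2.69) than in BMM mock (2.78 to 2.88). It was higher than both in MPI-2 LPS (2.95 to 3.04) and MPI-2 mock (3.06 to 3.21), so array spread also differed between the cell types. The arrays least like their groups were BMM LPS replicate 3 and BMM mock replicate 1.

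**Figure D1:**
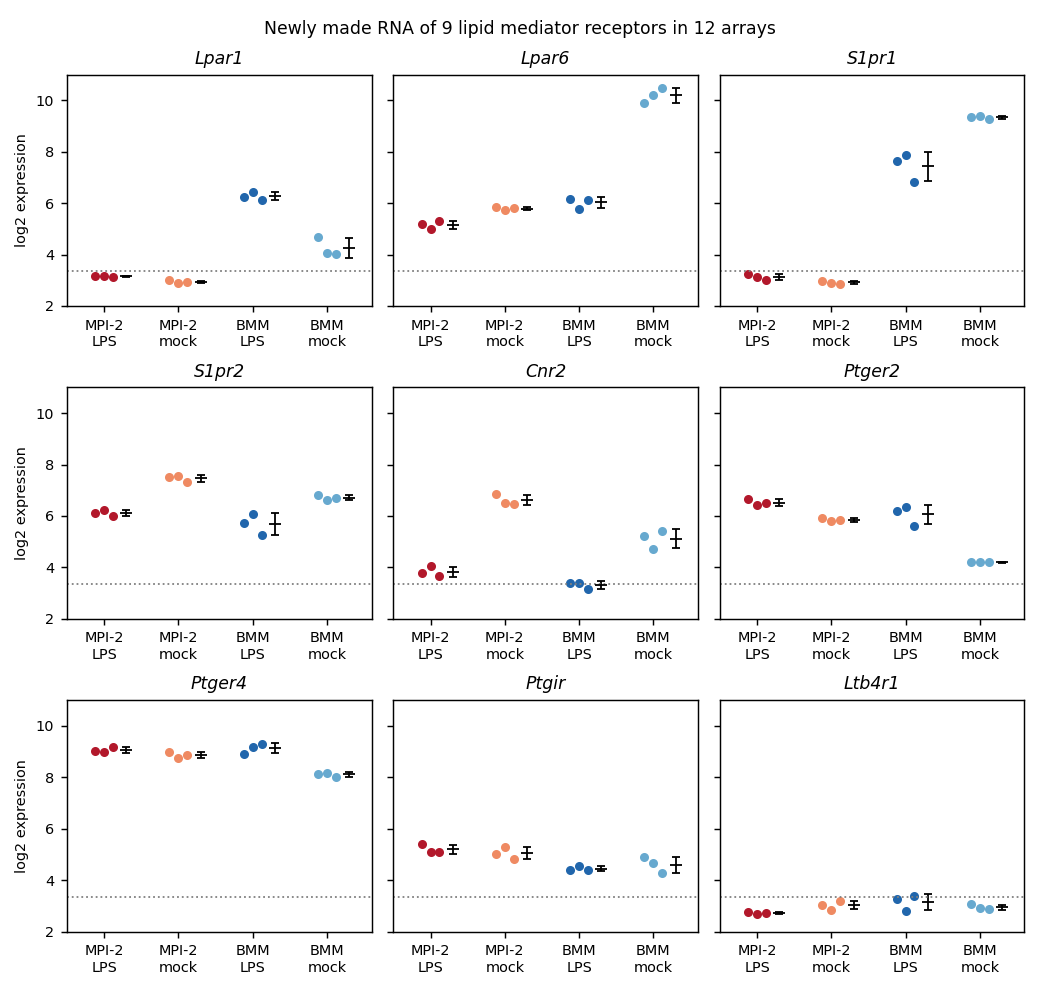
Log2 expression of newly made RNA (y axis) for 9 receptors, 1 panel each, in MPI-2 LPS, MPI-2 mock, BMM LPS and BMM mock (x axis). Points are single arrays, the bar beside them is the mean ± SD (n = 3) and the dotted line is the background level of 3.36. S1pr1 lies near 3 in MPI-2 and at 9.34 in BMM mock, and Ltb4r1 stays at or below the dotted line in nearly every array.

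Lpar6 encodes an LPA receptor of the purinergic-like branch that couples to G12/13. In BMM its new RNA was at 6.17, 5.77 and 6.13 with LPS, against 9.90, 10.20 and 10.47 in mock. The 2 groups stood far apart, with a log2 difference of -4.16 ± 0.16, or 17.9-fold lower with LPS. MPI-2 had 5.17, 4.98 and 5.30 with LPS, against 5.83, 5.72 and 5.79 in mock, a difference of -0.63 ± 0.16 with no overlap between the groups. After a further quantile normalization that difference was -0.38. Before LPS the line was already low, at 5.78 ± 0.058 in MPI-2 mock against 10.2 ± 0.28 in BMM mock (-4.41 ± 0.16). With LPS the 2 cell types stood closer together, at 5.15 ± 0.16 in MPI-2 and 6.03 ± 0.22 in BMM (-0.88 ± 0.16, and -1.35 after cyclic loess between arrays). BMM mock was highest and MPI-2 LPS lowest, and the groups between them, MPI-2 mock and BMM LPS, overlapped.

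Lpar6 lies inside the RefSeq limits of another gene, the cell cycle regulator Rb1, whose own probe set was set beside it. Rb1 was at 6.48 ± 0.15 in MPI-2 LPS and 7.22 ± 0.20 in MPI-2 mock, and at 5.58 ± 0.65 in BMM LPS and 6.89 ± 0.60 in BMM mock (SD, n = 3 each). Like Lpar6, Rb1 had a lower mean with LPS than in mock in both cell types. The LPS and mock arrays of Rb1 did not overlap in MPI-2, as for Lpar6, but they overlapped narrowly in BMM, unlike those of Lpar6. In mock the Rb1 arrays overlapped between the cell types (at most 7.37 in MPI-2, and 6.22 to 7.36 in BMM), which those of Lpar6 did not. Whether Rb1 transcripts add to the Lpar6 signal was not tested.

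Lpar1, an LPA receptor of the same branch as the S1P receptors, went the other way in BMM. It had 6.23, 6.43 and 6.14 in BMM LPS, against 4.70, 4.07 and 4.00 in BMM mock, so that every LPS array lay above every mock array. The increase was 2.01 ± 0.16 (limma adjusted p = 1.31e-07). In MPI-2 the gene was at 3.18, 3.17 and 3.13 with LPS and 2.99, 2.90 and 2.92 in mock, all under the background level, and did not pass (0.22 ± 0.16, adjusted p = 0.50). The LPS responses differed between the cell types by -1.79 ± 0.23 (MPI-2 minus BMM, adjusted p = 5.0e-05), a value limited by background on the MPI-2 side. Measured Lpar1 was lower in MPI-2 LPS than in BMM LPS (means 3.16 and 6.26, -3.11 ± 0.16, limma adjusted p = 2.79e-10). It was also lower in MPI-2 mock than in BMM mock (means 2.94 and 4.26, -1.32 ± 0.16, adjusted p = 6.10e-06). Taking the background level as the MPI-2 value, Lpar1 was at least 7.46-fold lower with LPS and at least 1.86-fold lower in mock. These folds were not tested. Fewer cells carrying a transcript and less of it per cell cannot be told apart in such bulk samples. Lpar1 is also known from fibroblasts, and 3 of 5 fibroblast markers (Col1a1, Col1a2 and Pdgfra, with Dcn and Lum below) exceeded background in all groups. Their summed linear signal was 69.2 to 76.9 in MPI-2 LPS and 109 to 126 in MPI-2 mock. In BMM it was 70.3 to 81.7 with LPS and 65.0 to 78.8 in mock. Pdgfra was at 4.41 in MPI-2 LPS and 6.13 in MPI-2 mock, and at 3.50 in BMM LPS and 3.39 in BMM mock. Col1a1 and Col1a2 went the other way in mock, lower in MPI-2 (4.42 and 3.71) than in BMM (4.99 and 4.09). The part of fibroblasts in the Lpar1 values was not tested.

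S1pr1 encodes the Gi-coupled S1P receptor known for lymphocyte egress and endothelial barrier function. BMM held 7.63, 7.85 and 6.81 with LPS, against 9.35, 9.39 and 9.28 in mock. All LPS arrays were lower and replicate 3 was the lowest, and the difference was -1.91 ± 0.20, a 3.76-fold lower signal. MPI-2 arrays were at 3.24, 3.14 and 3.01 with LPS and 2.99, 2.91 and 2.86 in mock, under background throughout, and differed by 0.21 ± 0.20 (0.36 after cyclic loess). Between cell types S1pr1 showed the widest gap of the 9 receptors, but it was among the genes on which the family was chosen. Measured means of 2.92 ± 0.063 in MPI-2 mock and 9.34 ± 0.054 in BMM mock differed by -6.42 ± 0.20, at least 62.8-fold against the background level. With LPS the means were 3.13 ± 0.12 in MPI-2 and 7.43 ± 0.55 in BMM, at least 16.7-fold lower in the line.

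S1pr1 is a textbook transcript of endothelium and lymphocytes, whose markers were therefore looked at beside it. Of 4 endothelial markers, 1 exceeded background in each MPI-2 group, 3 in BMM LPS and 2 in BMM mock. Their summed linear signal was 31.5 to 32.5 in MPI-2 LPS, 31.3 to 34.7 in MPI-2 mock, 42.0 to 43.6 in BMM LPS and 37.7 to 46.5 in BMM mock. Tek was under background in all groups and Cdh5 in all but BMM LPS. Of 5 T cell markers, Cd3e was above background in every group, at 3.59 ± 0.16 in MPI-2 LPS, 3.69 ± 0.044 in MPI-2 mock, 3.99 ± 0.16 in BMM LPS and 4.05 ± 0.27 in BMM mock, and Cd4 in BMM mock as well. Of 4 B cell markers, Cd79b and Pax5 were above background in both BMM groups and none in MPI-2. The part of such cells in the S1pr1 values was not tested.

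S1pr2, which signals through G12/13 and holds back migration, fell with LPS in both cell types. MPI-2 had 6.10, 6.22 and 6.00 with LPS, against 7.53, 7.55 and 7.32 in mock. BMM had 5.74, 6.09 and 5.24 with LPS, against 6.80, 6.63 and 6.72 in mock. Neither pair of groups overlapped. The decreases were -1.36 ± 0.17 in MPI-2 (limma adjusted p = 4.93e-05) and -1.02 ± 0.17 in BMM (adjusted p = 0.00030). Their difference, -0.34 ± 0.24, did not pass (adjusted p = 0.49), with a 95% interval of -0.86 to 0.18. It passed without BMM LPS replicate 3 and BMM mock replicate 1 together (-0.60, adjusted p = 0.039), a setting added after seeing the data. S1pr2 was higher in MPI-2 mock than in BMM mock (7.47 ± 0.13 and 6.71 ± 0.088, a difference of 0.75 ± 0.17, adjusted p = 0.0025), a call lost after cyclic loess (0.38, adjusted p = 0.054). With LPS the cell types overlapped, at 6.11 ± 0.11 and 5.69 ± 0.43 (0.42 ± 0.17, adjusted p = 0.062), which passed with the replicate block (adjusted p = 0.043) or without BMM LPS replicate 2 (0.62, adjusted p = 0.0054) and was -0.06 after cyclic loess. In the unstimulated cells S1pr1 was thus lower in the line, by at least 5.97 on the log2 scale, and S1pr2 higher by 0.75.

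Cnr2 encodes CB2, the cannabinoid receptor of immune cells, whose main endogenous ligand in tissue is 2-arachidonoylglycerol. MPI-2 had 3.79, 4.04 and 3.67 with LPS, against 6.85, 6.51 and 6.48 in mock, a difference of -2.78 ± 0.18 or 6.87-fold lower. BMM had 3.41, 3.38 and 3.14 with LPS, against 5.21, 4.71 and 5.42 in mock. That difference was -1.80 ± 0.18, and since the BMM LPS mean of 3.31 lay under background it stands for a signal at least 3.31-fold lower. All LPS arrays were below all mock arrays in both cell types. The gene was higher in the line in both states. In mock the difference was 1.5 ± 0.18 (6.61 ± 0.20 in MPI-2 and 5.11 ± 0.37 in BMM). With LPS it was at least 1.37-fold against the background level (measured means 3.83 ± 0.19 in MPI-2 and 3.31 ± 0.15 in BMM). The measured difference with LPS was 0.52 ± 0.18, and was 0.39 after cyclic loess and 0.77 after quantile normalization. The measured difference of the responses was -0.98 ± 0.25, and -0.48 after a further quantile normalization, but with BMM LPS under background its size is not fixed. All 4 group levels were apart from their neighbours, in the order MPI-2 mock, BMM mock, MPI-2 LPS and BMM LPS.

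The windows before the starts of 3 receptors that were lower with LPS in both cell types are shown. They can be set beside those of Ptger2 and Ptger4, which rose in BMM. The windows of Lpar1, which also rose in BMM, are not printed. Each is the 250 bases before a RefSeq start (GRCm38.p6), read on the gene's strand, and capitals mark a match to one of 5 motifs named further on. Lpar6 lies on chromosome 14 (chr14:73237641-73237890, plus strand), the 2 starts of Cnr2 on chromosome 4 (chr4:135894939-135895188 and chr4:135911430-135911679, plus strand) and S1pr2 on chromosome 9 (chr9:20976794-20977043, minus strand).
Lpar6: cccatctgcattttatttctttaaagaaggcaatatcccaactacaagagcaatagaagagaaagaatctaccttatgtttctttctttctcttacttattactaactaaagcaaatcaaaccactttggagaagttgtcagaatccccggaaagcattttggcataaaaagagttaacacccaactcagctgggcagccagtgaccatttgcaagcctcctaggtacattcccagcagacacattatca
Cnr2, upstream start: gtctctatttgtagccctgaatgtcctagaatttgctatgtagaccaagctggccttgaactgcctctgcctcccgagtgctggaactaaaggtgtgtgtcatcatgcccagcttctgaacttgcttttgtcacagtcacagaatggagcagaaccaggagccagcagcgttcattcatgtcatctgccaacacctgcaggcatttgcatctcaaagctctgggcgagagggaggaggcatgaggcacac
Cnr2, downstream start: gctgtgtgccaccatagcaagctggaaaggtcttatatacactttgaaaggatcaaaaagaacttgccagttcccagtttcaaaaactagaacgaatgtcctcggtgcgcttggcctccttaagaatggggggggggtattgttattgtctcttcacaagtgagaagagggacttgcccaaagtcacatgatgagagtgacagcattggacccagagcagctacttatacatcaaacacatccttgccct
S1pr2: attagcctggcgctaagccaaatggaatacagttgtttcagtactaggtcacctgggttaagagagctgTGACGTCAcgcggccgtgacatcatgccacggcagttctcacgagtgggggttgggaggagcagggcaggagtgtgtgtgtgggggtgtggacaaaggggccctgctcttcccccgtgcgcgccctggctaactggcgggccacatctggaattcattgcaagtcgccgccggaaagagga

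Ptger2 encodes EP2, a Gs-coupled receptor for prostaglandin E2, and rose with LPS in both cell types. MPI-2 had 6.65, 6.41 and 6.49 with LPS, against 5.93, 5.79 and 5.82 in mock. BMM had 6.20, 6.35 and 5.62 with LPS, against 4.20, 4.23 and 4.19 in mock. The groups did not overlap in either cell type. The increases were 0.67 ± 0.16 in MPI-2 (limma adjusted p = 0.0082) and 1.85 ± 0.16 in BMM (adjusted p = 2.89e-07), and they differed by -1.19 ± 0.22 (adjusted p = 0.0019). In mock the line held more, 5.85 ± 0.072 against 4.21 ± 0.018 in BMM (1.64 ± 0.16, adjusted p = 5.33e-07). With LPS the cell types were close, 6.52 ± 0.12 in MPI-2 and 6.06 ± 0.39 in BMM, and the difference of 0.46 ± 0.16 (adjusted p = 0.029) shrank to 0.063 after cyclic loess (adjusted p = 0.77) and to 0.019 after quantile normalization (adjusted p = 0.94). It was also not called without BMM LPS replicate 3 (0.24, adjusted p = 0.13), MPI-2 LPS replicate 1 (0.39, adjusted p = 0.11) or MPI-2 LPS replicate 3 (0.47, adjusted p = 0.063), or with the arrays of the 2 groups alone (0.46, adjusted p = 0.074).

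Ptger4 encodes EP4, the other Gs-coupled receptor for prostaglandin E2 among the members. BMM had 8.91, 9.18 and 9.30 with LPS, against 8.14, 8.19 and 8.02 in mock, an increase of 1.01 ± 0.13 with no overlap (limma adjusted p = 1.92e-05). MPI-2 had 9.03, 8.97 and 9.20 with LPS and 8.98, 8.76 and 8.87 in mock, which overlapped (0.20 ± 0.13, adjusted p = 0.44). The responses differed by -0.82 ± 0.18 (adjusted p = 0.0063). In mock Ptger4 was higher in MPI-2, 8.87 ± 0.11 against 8.12 ± 0.084 in BMM (0.76 ± 0.13, adjusted p = 0.00020), a call lost after cyclic loess (0.32, adjusted p = 0.074). With LPS the cell types did not differ beyond their spread, 9.07 ± 0.12 in MPI-2 and 9.13 ± 0.20 in BMM (-0.06 ± 0.13, adjusted p = 0.70, 95% interval -0.34 to 0.21), although cyclic loess called it lower in MPI-2 (-0.48, adjusted p = 0.0081). BMM LPS, MPI-2 LPS and MPI-2 mock overlapped their neighbours in that order, and BMM mock stood below them.

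Ptgir encodes the receptor for prostacyclin, which also couples to Gs. MPI-2 had 5.40, 5.09 and 5.11 with LPS and 5.04, 5.30 and 4.84 in mock (0.14 ± 0.17, limma adjusted p = 0.73). BMM had 4.39, 4.56 and 4.38 with LPS and 4.89, 4.66 and 4.27 in mock (-0.16 ± 0.17, adjusted p = 0.53). The groups overlapped in both, with a 95% interval of -0.21 to 0.50 for the line and one of -0.52 to 0.19 for BMM, so responses of the size seen for Ptger2 in BMM lay outside these intervals. With LPS it was higher in MPI-2, 5.20 ± 0.17 against 4.44 ± 0.10 in BMM (0.76 ± 0.17, adjusted p = 0.0015), with no overlap. The same comparison in mock, 5.06 ± 0.23 in MPI-2 and 4.61 ± 0.32 in BMM, passed narrowly with overlapping arrays (0.45 ± 0.17, adjusted p = 0.042). That call was lost without BMM mock replicate 2 (0.48, adjusted p = 0.063) or 3 (0.28, adjusted p = 0.19), without MPI-2 mock replicate 1 (0.46, adjusted p = 0.087) or 2 (0.33, adjusted p = 0.19), and without MPI-2 LPS replicate 2 or 3 (0.45, adjusted p = 0.053 in each). It was also lost after either added normalization (0.36 and 0.30), with a trended robust eBayes step (adjusted p = 0.052) and with the mock arrays alone (adjusted p = 0.073).

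The windows before the starts of both prostaglandin E2 receptors are given for the same purpose. Ptger2 lies on chromosome 14 (chr14:44987861-44988110, plus strand) and Ptger4 on chromosome 15 (chr15:5244188-5244437, minus strand).
Ptger2: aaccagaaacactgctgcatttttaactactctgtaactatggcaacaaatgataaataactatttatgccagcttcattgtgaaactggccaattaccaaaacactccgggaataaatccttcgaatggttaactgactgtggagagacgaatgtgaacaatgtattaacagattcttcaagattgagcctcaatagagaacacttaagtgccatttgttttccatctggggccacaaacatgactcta
Ptger4: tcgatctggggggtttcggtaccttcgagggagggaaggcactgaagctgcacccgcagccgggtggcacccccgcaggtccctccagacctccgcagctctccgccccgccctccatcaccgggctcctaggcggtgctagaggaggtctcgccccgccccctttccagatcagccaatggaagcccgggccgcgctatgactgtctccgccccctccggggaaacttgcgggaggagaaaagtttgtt

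Ltb4r1, the high-affinity leukotriene B4 receptor of phagocytes, had all 4 group means under background. MPI-2 held 2.75, 2.70 and 2.72 with LPS and 3.04, 2.86 and 3.18 in mock. BMM held 3.25, 2.80 and 3.38 with LPS and 3.06, 2.91 and 2.87 in mock. Neither LPS response passed (MPI-2 -0.30 ± 0.15, limma adjusted p = 0.24; BMM 0.20 ± 0.15, adjusted p = 0.38). The MPI-2 response passed with the MPI-2 arrays alone (adjusted p = 0.049), and without BMM LPS replicate 2 the BMM response (0.37, adjusted p = 0.049) and the difference of the responses (-0.67, adjusted p = 0.019) passed. The only called difference in the fit to 12 arrays was lower in MPI-2 LPS than in BMM LPS, -0.42 ± 0.15 (adjusted p = 0.031). It was lost after cyclic loess (-0.19, adjusted p = 0.30) or quantile normalization (-0.20, adjusted p = 0.25) and with the compared arrays alone (adjusted p = 0.060). It was also lost without BMM LPS replicate 1 (-0.36, adjusted p = 0.098) or 3 (-0.30, adjusted p = 0.12) and without MPI-2 LPS replicate 1 (-0.43, adjusted p = 0.067), 2 (-0.41, adjusted p = 0.076) or 3 (-0.42, adjusted p = 0.078). No level or fold is drawn from these values.

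Set together, LPS raised 1 and lowered 1 of the 6 tested receptors in MPI-2, Ptger2 and S1pr2. Among all genes 5.17% were called higher and 9.58% lower in that comparison, 14.8% in all. In BMM it raised Lpar1, Ptger2 and Ptger4 and lowered S1pr2, 4 of the 6, beside 10.3% of all genes called higher and 15.4% lower, 25.7% in all. The responses of Lpar1, Ptger2 and Ptger4 differed between cell types, each smaller in MPI-2. For Lpar1 the MPI-2 arrays lay under background, so the size of its response in the line is not known. Among all genes 13.4% had a called difference of responses and 6.27% a negative one. These shares are over all genes, including those under background. In a fit to the 12030 genes above background, 2979 were called for LPS in MPI-2, 4819 in BMM and 2646 for the difference of responses. With 6 receptors, nothing is read from these shares. Of the 3 described receptors, Lpar6 and Cnr2 were lower with LPS in both cell types and S1pr1 in BMM.

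**Figure D2:**
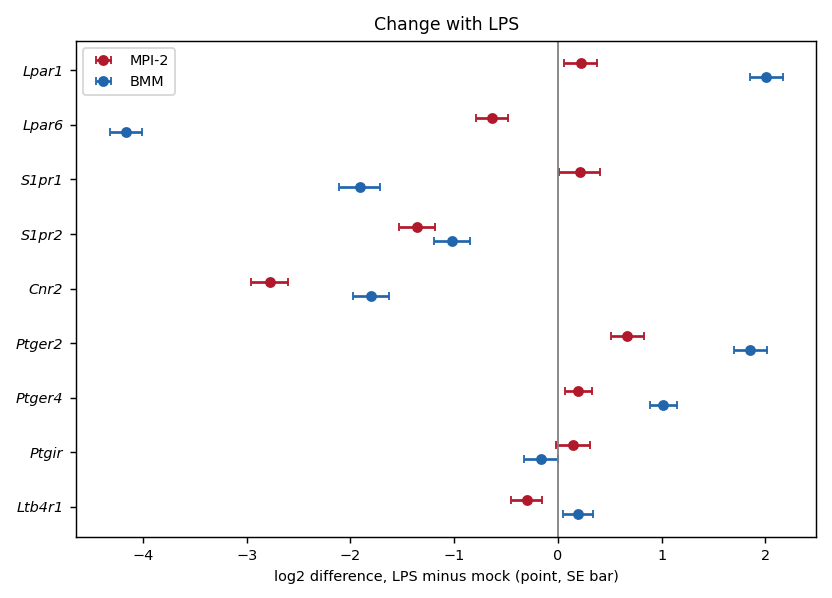
Log2 difference, LPS minus mock (x axis), for each of 9 receptors (y axis), with MPI-2 in red above BMM in blue and SE bars from the fit to 12 arrays. Cnr2 and S1pr2 lie left of 0 and Ptger2 right of 0 in both cell types, while Lpar6 is at -0.63 in MPI-2 and -4.16 in BMM.

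Between cell types, 5 of the 6 tested receptors passed in mock, with S1pr2, Ptger2, Ptger4 and Ptgir higher and Lpar1 lower in MPI-2. Over all genes 38.6% were called, 20.6% higher and 18% lower. With LPS 4 of 6 passed, Ptger2 and Ptgir higher, Lpar1 lower, and Ltb4r1, which lay under background in both groups and has no measured level. Over all genes 44.1% were called there, 22.5% higher and 21.6% lower. With 6 receptors and such broad differences between the cells, nothing is read from either share. The median difference of all genes was -0.10 in mock and -0.14 with LPS, and -0.01 in both after cyclic loess. Over genes above background alone it was 0.03 in mock and 0.06 with LPS. After cyclic loess the receptors called in mock were Lpar1 (-1.20) and Ptger2 (1.38), and those called with LPS were Lpar1 (-3.01), Ptgir (0.58) and Ptger4 (-0.48).

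**Figure D3:**
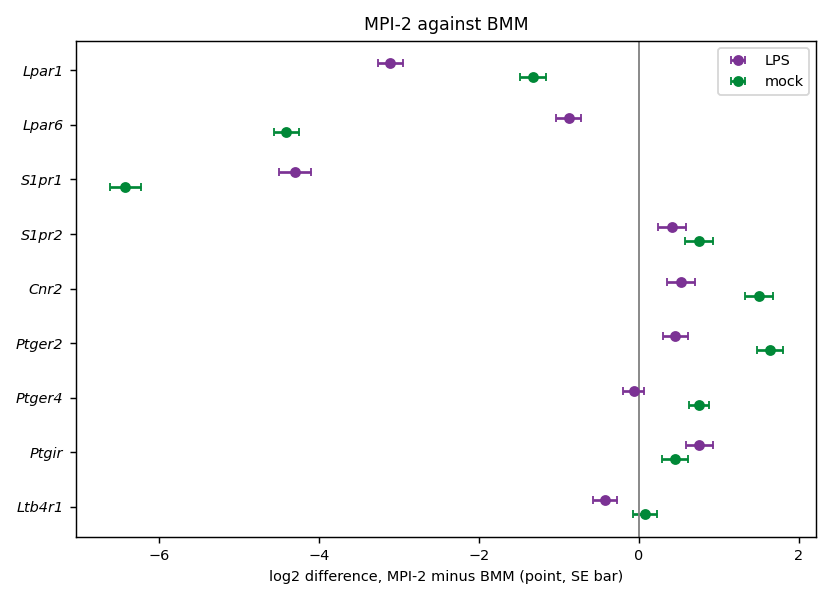
Log2 difference, MPI-2 minus BMM (x axis), for 9 receptors (y axis) with LPS (purple, above) and in mock (green, below), with SE bars. S1pr1 lies at -4.30 with LPS and -6.42 in mock, and Lpar6 at -0.88 and -4.41.

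The 250-base windows were searched on both strands for AP-1 (TGANTCA), the cyclic AMP response element (TGACGTCA), the PU.1 core (GAGGAA), the interferon-stimulated response element and NF-kB, these 2 given here by name alone. RefSeq starts were given for 9 of the 10 receptors, 13 windows in all, including Lpar5. A cyclic AMP response element was found in the S1pr2 window, at positions -181 to -174 from the start, and 1.55% of 32851 windows hold one. The PU.1 core matched in Lpar1 (1 of 3 starts), Ptgir (2 matches) and Ltb4r1, against 23.3% of all windows. No window of a receptor matched AP-1, the interferon element or NF-kB, which 6.75%, 2.98% and 7.25% of all windows hold. No matches overlapped each other. A match is a run of letters, not a bound site, and none of the windows of Lpar6, Cnr2, Ptger2 or Ptger4 held any of these letters.

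Genes with the most similar pattern over the 12 arrays were taken by Pearson's r among 5419 genes above background whose group means spanned at least 1. Arrays of a group share their group mean, so r mostly reflects 4 levels. S1pr1 was closest to Gpr183, an oxysterol receptor (r = 0.998), the protease gene Ctsl (0.997) and the DNA sensor Tlr9 (0.995). Gpr183 was at 3.11 in MPI-2 LPS and 2.99 in MPI-2 mock, both under background, and at 5.64 in BMM LPS and 6.98 in BMM mock. Lpar6 was closest to Aph1c, a gamma-secretase subunit (0.988), Tmem150b (0.985) and the argonaute gene Ago4 (0.983). Ago4 had means of 2.83 in MPI-2 LPS and 2.89 in MPI-2 mock, both under background. In BMM it was at 3.40 with LPS, close to background, and at 6.67 in mock. Cnr2 was closest to Haus4, a subunit of the augmin complex (0.992), the glycogen phosphorylase Pygl (0.984) and Tmem65 (0.977). Pygl was at 4.31 in MPI-2 LPS, 5.74 in MPI-2 mock, 3.90 in BMM LPS and 4.75 in BMM mock.

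Of 31 other receptors for lipid mediators and metabolites, 4 rose and 1 fell with LPS in MPI-2, beside 5.17% of all genes called higher and 9.58% lower, with a median difference of 0.03 against 0.02 over all genes. In BMM 5 rose and 1 fell, beside 10.3% and 15.4% of all genes, with a median of 0.12 against 0.04. Hcar2, the receptor for nicotinic acid and beta-hydroxybutyrate, rose by 2.58 ± 0.16 in MPI-2 (9.66 ± 0.16 with LPS and 7.08 ± 0.07 in mock) and by 3.64 ± 0.16 in BMM (7.73 ± 0.18 and 4.09 ± 0.33). Gpr18 rose by 2.02 ± 0.15 in MPI-2 and 0.95 ± 0.15 in BMM. Ptafr, the receptor for platelet-activating factor, rose by 1.52 ± 0.14 in MPI-2 and 0.55 ± 0.14 in BMM. P2ry10b rose by 1.25 ± 0.29 in MPI-2 and 0.89 ± 0.29 in BMM. The fatty acid receptor Ffar4 fell in MPI-2, -1.24 ± 0.15, and Gpr183 fell in BMM, -1.34 ± 0.16. These changes had limma adjusted p from 1.86e-10 to 0.034. In mock 5 receptors were higher and 8 lower in MPI-2, beside 20.6% and 18% of all genes. Among them were the prostaglandin F2-alpha receptor Ptgfr (2.56 ± 0.15) and the short-chain fatty acid receptor Ffar2 (3.04 ± 0.16) on the higher side and Gpr132 (-3.22 ± 0.17) and Gpr183 on the lower, the last at least 12.2-fold since its MPI-2 mean lay under background.

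Enzymes and carriers that make, move or break down these ligands changed in both directions. Of 36 measured, 4 rose and 11 fell in MPI-2 (median difference -0.01), where 5.17% of all genes were called higher and 9.58% lower. In BMM 10 rose and 10 fell (median 0.09), where 10.3% were called higher and 15.4% lower. On the prostaglandin E2 side Ptgs2, the inducible cyclooxygenase, rose by 4.16 ± 0.13 in MPI-2 (8.39 ± 0.10 with LPS and 4.22 ± 0.19 in mock) and by 4.12 ± 0.13 in BMM (11.7 ± 0.10 and 7.58 ± 0.15). The synthase Ptges rose by 1.09 ± 0.21 in MPI-2 and 2.21 ± 0.21 in BMM. Plpp3, a phosphatase that degrades LPA and S1P, rose by 1.22 ± 0.24 in MPI-2 and 2.90 ± 0.24 in BMM. The hydrolase Abhd12, which can degrade 2-arachidonoylglycerol, fell in MPI-2 (-2.10 ± 0.15) and in BMM (-1.94 ± 0.15), and so did Daglb, which makes it (-0.81 ± 0.18 in MPI-2 and -2.11 ± 0.18 in BMM). The lipase Mgll fell in MPI-2 (-1.24 ± 0.18) and was at 0.14 ± 0.18 in BMM (adjusted p = 0.63). In the leukotriene pathway Ltc4s fell in MPI-2 (-1.84 ± 0.14) and the 5-lipoxygenase helper Alox5ap in BMM (-2.05 ± 0.14), and each of these 2 responses differed between the cell types (Ltc4s -1.72 ± 0.20, Alox5ap 1.96 ± 0.19). The changes written here as rises or falls had limma adjusted p from 5.31e-12 to 0.0058. In mock Alox5 (3.71 ± 0.15) was higher in MPI-2, as were Mgll (at least 17.0-fold) and Plpp1 (at least 7.67-fold), whose BMM means lay under background, and Ptgs2 (-3.35 ± 0.13), Hpgds (-3.14 ± 0.29) and Tbxas1 (-2.39 ± 0.16) were lower.

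**Figure D4:**
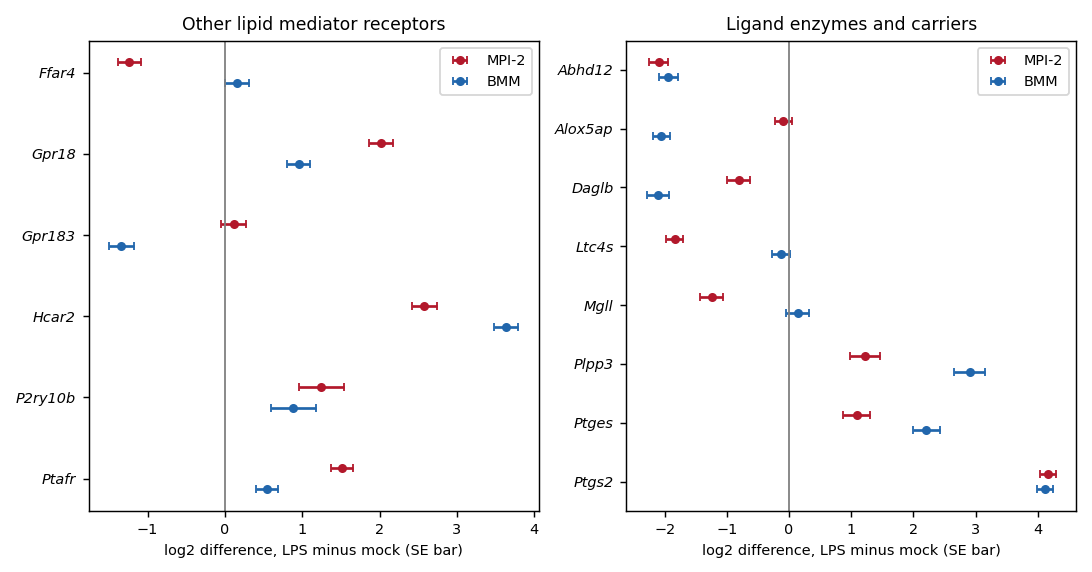
Log2 difference, LPS minus mock (x axis), with SE bars, for other lipid mediator receptors (left) and for ligand enzymes and carriers (right) named by rule, with MPI-2 in red above BMM in blue. Ptgs2 lies near 4.1 in both cell types, and Hcar2 at 2.58 in MPI-2 and 3.64 in BMM.

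Signalling genes downstream of the receptors were mixed. Of 21 G proteins and regulators, 3 rose and 7 fell in MPI-2 (median -0.27), beside 5.17% of all genes called higher and 9.58% lower. In BMM 3 rose and 6 fell (median 0.01), beside 10.3% and 15.4%. Rgs2, which shortens Gq signals, fell in MPI-2 (-1.13 ± 0.13) and in BMM (-1.68 ± 0.13). Rgs16, also a regulator of G protein signals, rose by 0.91 ± 0.16 in MPI-2 and 1.44 ± 0.16 in BMM. The arrestin Arrb1 fell in MPI-2 (-0.88 ± 0.18) and BMM (-1.63 ± 0.18), as did the Gi subunit Gnai2 (-1.05 ± 0.19 in MPI-2 and -0.75 ± 0.19 in BMM). Another Gi subunit, Gnai3, went the other way in MPI-2 and rose (0.91 ± 0.21), while the G protein subunit Gna15 fell there (-1.27 ± 0.27). In BMM the arrestin Arrb2 fell (-1.57 ± 0.20) and the receptor kinase Grk3 rose (1.20 ± 0.14). Rgs1 was lower in MPI-2 mock than in BMM mock (-5.20 ± 0.21). Among genes of cyclic AMP signalling, the phosphodiesterase Pde4b, which breaks down cyclic AMP, rose by 1.53 ± 0.12 in MPI-2 and 0.57 ± 0.12 in BMM, while Pde3b (-2.08 ± 0.26) and Pde4d (-1.79 ± 0.18) fell in BMM. Prkar2b, a regulatory subunit of protein kinase A, rose by 0.83 ± 0.17 in MPI-2 and 1.66 ± 0.17 in BMM. The named changes with LPS in these lists had limma adjusted p from 1.11e-07 to 0.0065.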

How the data were processed

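The authors deposited 1 table of log2 expression values from whole-transcript arrays, 12 arrays by 34760 probe sets, made with RMA and the package affy per the submitters' processing notes. The sources used here give no versions. The values were used as deposited. Their distributions are not equal between arrays (medians 3.60 to 3.79, interquartile ranges 2.38 to 3.21). The log base was taken from the method and the range of 1.18 to 12.82. The number of arrays limits the precision.

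Of the probe sets, 21640 name 1 gene, 1321 several and 11799 none in the platform annotation, and only the first kind was used. Symbols were updated through RefSeq (GRCm38.p6), and for 954 genes with several probe sets the one with the highest mean was kept. Limma 3.58.1 in R 4.3.3 fitted 4 group means to all 12 arrays (8 residual degrees of freedom plus 6.99 from the empirical Bayes step), and p-values were adjusted by Benjamini-Hochberg over 19937 genes. The fit was checked on simulated data that gave all groups the same SD for a gene. In the arrays the median SD of a gene was 0.11 in MPI-2 LPS and 0.12 in MPI-2 mock. It was 0.20 in BMM LPS and 0.18 in BMM mock, and the check does not cover this inequality. Tables were handled in Python 3.11.15 with pandas 2.3.3.

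Members, gene lists and tests were chosen with earlier results of these data known. Named from the other lists were up to 3 increases and 3 decreases per comparison, by size, past the threshold with groups that do not overlap, and their values in other comparisons beside them. A fold called "at least" sets the dimmer arrays at the background level where they lie under it. Such a fold is not a bound for the spread of the arrays or for other normalizations. Alternatives were cyclic loess, quantile normalization, a replicate block, the compared arrays alone, genes above background, trended robust eBayes, means of probe sets and leaving out arrays. The counts of 1 further gene list are not reported here.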

Additional observations from a re-analysis of the deposited data

Results flagged for a closer look

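The LPS responses of 3 receptors differed between the cell types by the interaction term of the limma fit. The difference, MPI-2 minus BMM, was -1.79 for Lpar1 (adjusted p = 5.0e-05), where the MPI-2 arrays lay under background, -1.19 for Ptger2 (adjusted p = 0.0019) and -0.82 for Ptger4 (adjusted p = 0.0063). For S1pr1 all LPS arrays lay above all mock arrays in MPI-2 and below them in BMM, a difference of 2.12 that was not tested, with all 6 MPI-2 arrays under background.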

How the results depend on the processing

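Of 886 values of single receptors under the alternatives, 840 kept their side of the threshold or, untested, moved by less than the replicate SD. Another 28 lost a call, 7 gained one and 11 untested values moved further. Of the called values 0 reversed, while some uncalled ones near 0 changed sign. Many alternatives cannot move a difference itself. These are the replicate block, trended robust eBayes, genes above background, the compared arrays alone and means of probe sets. Leaving out an array of a group outside the comparison cannot move it either. For the 3 untested receptors such values are the same by construction, so the count of 840 does not measure robustness. The counts of called receptors with LPS were 4 to 5 in BMM and 2 in MPI-2 when single arrays were left out, and 3 to 4 for the difference of responses. In mock between cell types 5 were called, 4 to 5 without single arrays and 2 after cyclic loess. With LPS between cell types 4 were called, 2 to 5 without single arrays, and 2 after quantile normalization, with the compared arrays alone, or without BMM LPS replicate 3 and BMM mock replicate 1 together, the last chosen after seeing the data. The cause of these losses was not tested. With each cell type's own arrays 5026 genes were called for LPS in MPI-2, against 2941 in the fit to 12 arrays, and 3464 in BMM, against 5114, so that the order of the cell types turns round. The replicate numbers of the titles, from which the numbers in the descriptions of the MPI-2 mock arrays differ, did not pair the arrays: deviations of same-numbered arrays correlated at -0.15 to 0.24 and 4 of 12 matched best with their own number. With the replicate block 5 receptors were called between cell types with LPS (4 without), and the other counts did not move. That block used the title numbers only. Values near background, as for Ltb4r1 and for Lpar1 and S1pr1 in MPI-2, limit what these arrays can show.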
